A study of Orestias ascotanensis with 42 samples.

Results

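The miR-99 and miR-100 family of microRNAs was followed through gills, skin and muscle of the killifish Orestias ascotanensis, in a winter and a summer collection. Its members were taken by name: every mature miRNA listed as miR-99 or miR-100, with or without a letter, once the species prefix had been removed. This gave 12 names of 1342, from 45 entries that carry the prefixes of 12 fish species. The names were not chosen by their levels, but the entry that stands for a name was selected on its read count, as the highest in each library, and the family was picked out with results of these data known. The ratio of miR-100b-5p to miR-100 was named together with the members and is therefore described without a test.

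MicroRNAs are short RNAs that guide a silencing complex to matching messenger RNAs, and each hairpin precursor gives a 5p and a 3p arm. The miR-100 lineage is among the oldest in animals, and in vertebrates the miR-99 and miR-100 genes lie in clusters with let-7 and miR-125. In mammalian cells the growth regulator mTOR and the insulin-like growth factor receptor IGF1R are among their known targets, and in zebrafish the pair falls in the regenerating heart. The miR-10 family is related to them in sequence. No mature sequence is printed here because none was at hand in the sources used.

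The fish were wild adults netted in the Ascotán salt pan of northern Chile, 7 in the collection labelled winter and 7 in that labelled summer, and each gave gills, skin and muscle, so that there were 42 libraries in 6 groups of 7. No treatment or genotype was applied, no sample was pooled, and the seasons hold different fish, so season and collection date cannot be told apart. The season follows the treatment label, since both collections are called summer in the library titles. Libraries are named by tissue, season and fish number.

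With 1 name kept per read profile (a set of names whose counts match within 5%, and so rest on the same reads), a library held 201199 to 10606342 gill reads, 3433125 to 12259213 skin reads or 5199064 to 16819860 muscle reads. Gills summer 4 and gills winter 2 were the shallowest. Muscle markers (miR-133a, miR-206 and miR-499) summed to 28340 to 88090 counts per 1000000 reads (CPM) in muscle, 5901 to 15740 in skin and 288.4 to 572.9 in gills, so the skin libraries also held muscle miRNA. Epithelial markers (miR-200b, miR-141 and miR-429) summed to 5733 to 17250 in gills and 110 to 387.8 in muscle. Levels are CPM, reads per 1000000, after TMM scaling, which sets each library by the bulk of its miRNAs and not by its total. Mature miRNAs have nearly the same length, so levels were compared between names without a length correction. In whole tissue, fewer cells that hold a miRNA and less of it per cell cannot be told apart.

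The family's reads fell into 4 distinct 5p profiles. miR-100, miR-100-5p and miR-100a-5p shared the first and most abundant, with 4961678, 4842587 and 4958887 reads over the 42 libraries. miR-99 (646691 reads) and miR-99b (646657) shared the second. miR-99-5p (242915) and miR-99a (242914) shared the third. miR-100b-5p, listed only for the Atlantic cod, stood alone with 15277 reads. The 3p arms were rare: miR-100a-2-3p had 180 reads in 28 libraries and miR-100a-3p 26 reads in 19. miR-99-3p and miR-99-2-3p had 0 reads in all 42 libraries, where a count of 0 allows up to 3 reads per library. Names within a profile are 1 measurement under several labels, so miR-100, miR-99, miR-99-5p and miR-100b-5p stand below for their profiles. Whether reads of the smaller profiles also count in the larger ones cannot be told from these tables.

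The entries behind a name show which species' sequences these killifish reads matched. The miR-99 profile is held by zebrafish mir-99-1 and channel catfish mir-99b. The miR-99-5p profile holds zebrafish mir-99-2 with 242922 reads, the cod and salmon 5p entries, the catfish mir-99a and the cichlid entries named miR-99b. The 5 cichlid entries named miR-99a held 2 reads each. The letters a and b therefore mark different reads in different species. For miR-100 the highest entry was a fugu precursor in 21 libraries, the first cichlid precursor (mir-100-1) in 19 and the second (mir-100-2) in 2. Ties went to the entry listed first. The Tetraodon entry equalled the fugu one in every library, and in the latter 2 libraries the fugu entry equalled the second cichlid one. This split therefore does not rank the species.

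In muscle, the main family profiles were higher in the summer collection than in the winter one. miR-100 ran from 6822 to 21500 CPM in winter (median 16660) and from 49060 to 112400 in summer (median 67840). All 7 summer libraries lay above every winter library, and on this scale, but not on plain totals, above every gill and skin library too. The change was 4.23-fold (log2 2.08 ± 0.29 SE, edgeR adjusted p = 9.51e-05). miR-99 ran from 984.7 to 2750 in winter (median 2276) and from 6123 to 13520 in summer (median 8411). It changed 3.85-fold (log2 1.94 ± 0.27, edgeR adjusted p = 9.51e-05), and its groups did not overlap either. The third profile, miR-99-5p, ran from 446 to 1197 in winter (median 906.4) and from 1680 to 4046 in summer (median 2762). Its change was 2.96-fold (log2 1.57 ± 0.27, edgeR adjusted p = 0.000786), again without overlap. The share of all tested names without overlap is not given, so the separation is a description.

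miR-100b-5p did not follow them. It ran from 41.76 to 87.73 in winter muscle (median 72.91) and from 31.59 to 125.4 in summer muscle (median 89.22), and the groups overlapped. Its log2 change was 0.17 ± 0.32 (95% interval -0.50 to 0.84, edgeR adjusted p = 0.795), and on plain totals it was -0.34.

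Of the 8 family names tested in muscle between seasons, 7 rose and 0 fell. Over all 427 names tested 13.8% passed, 6.56% as higher and 7.26% as lower. The median log2 change was 1.94 over the 8 names and -0.17 over all names. The 7 names rest on 3 profiles, so they are not 7 separate results. All 7 also passed when each muscle library was left out in turn, with the change of miR-100 between 1.94 and 2.25. On plain totals miR-100 changed by 1.62 and its winter and summer libraries still did not overlap, while those of miR-99 and miR-99-5p then did. In the same comparison 0 of 3 muscle markers passed in edgeR (miR-206 was at 1.17 ± 0.42, adjusted p = 0.0731), nor did any of 3 epithelial, 3 keratinocyte and pigment or 2 smooth muscle markers. Red cell miR-451 fell (log2 -0.62 ± 0.20, edgeR adjusted p = 0.0447), as did leukocyte miR-142 (-1.92 ± 0.54, adjusted p = 0.0236). Red cell miR-144 (-0.21 ± 0.41, edgeR adjusted p = 0.795) and leukocyte miR-150 (-0.68 ± 0.53, 0.408) did not pass. Leukocyte miR-223a-5p was not tested. The summed red cell markers spanned 421.5 to 760.2 CPM in winter muscle and 337.5 to 734.4 in summer muscle, and the 3 leukocyte markers 69.37 to 879.6 and 50.26 to 180.3, with 1 of the 3 leukocyte markers at 0 in both groups. Their part in the family's change was not tested.

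**Figure D1:**
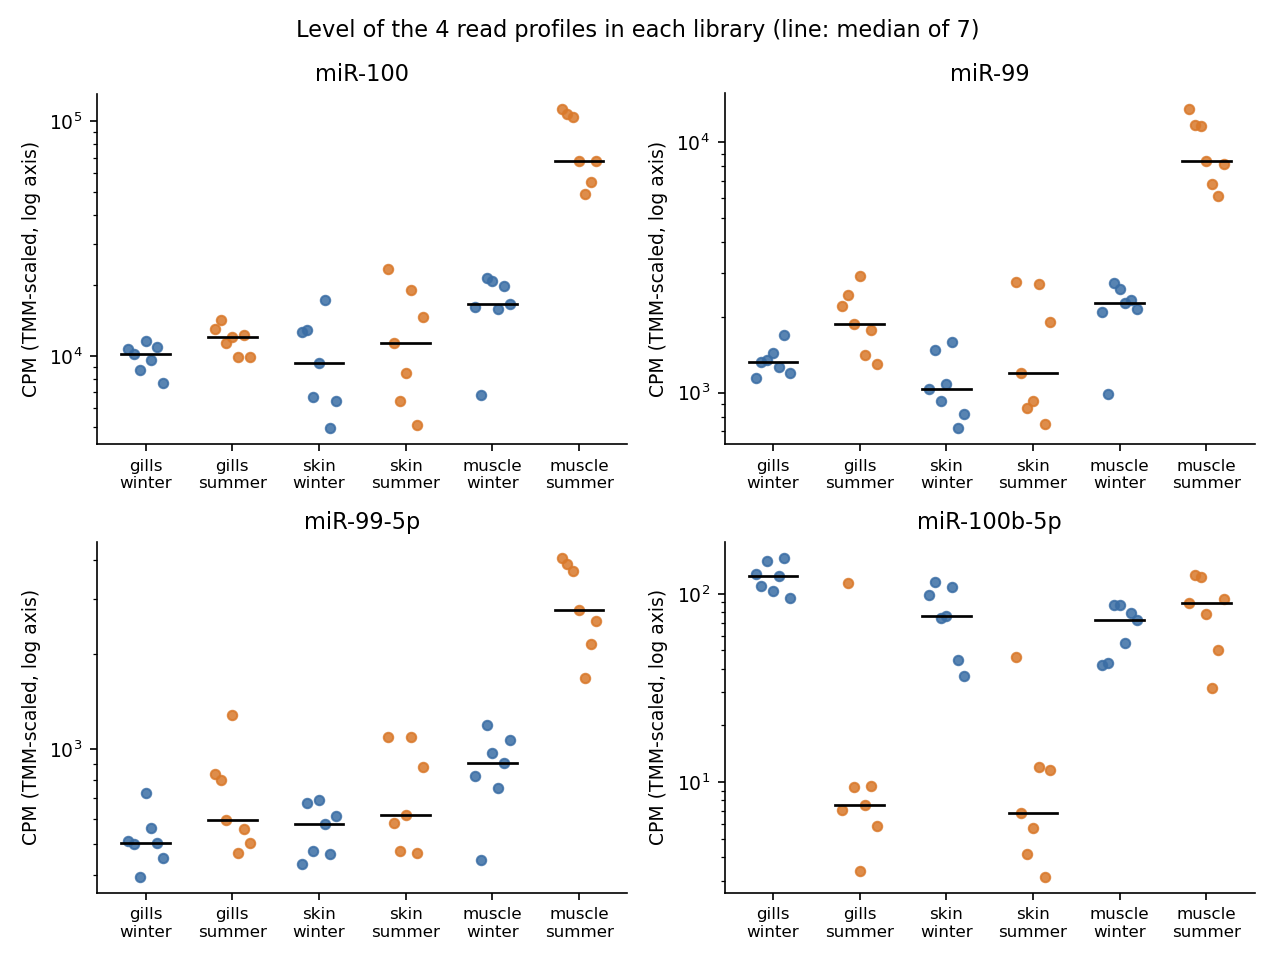
Level of the 4 read profiles in each library, in TMM-scaled CPM on a log axis, with 7 libraries and their median (line) per tissue and season. Summer muscle stands above every other group for miR-100 (49060 to 112400; on plain totals its libraries overlap those of gills), whereas miR-100b-5p drops in summer gills and skin except in 1 library of each.

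In the gills, where blood meets the water, miR-100 ran from 7674 to 11580 CPM in winter (median 10200) and from 9873 to 14280 in summer (median 12050). Its groups overlapped and its log2 change of 0.25 ± 0.17 did not pass (edgeR adjusted p = 0.832). miR-99 ran from 1149 to 1699 in winter (median 1331) and from 1301 to 2931 in summer (median 1875), with overlap. It did not pass either (0.55 ± 0.18, edgeR adjusted p = 0.387), nor did miR-99-5p (0.44 ± 0.21, adjusted p = 0.568). On plain totals miR-99-5p ran from 1306 to 1415 in winter gills and from 1467 to 2167 in summer gills, without overlap. Its change did not pass there either, and with TMM scaling its groups overlapped. The share of all tested names without overlap is not given for gills, so this separation is a description.

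miR-100b-5p showed another picture in gills. It ran from 95.17 to 155 in winter (median 124.3), and from 3.385 to 114.1 in summer (median 7.526). Of the 7 summer libraries 6 lay at 9.524 or below, under the lowest winter library, and gills summer 2 alone, at 114.1, lay within the winter range. With that library the log2 change was -2.35 ± 0.68 and did not pass (edgeR adjusted p = 0.251). Without it the change was -4.00 (adjusted p = 9.65e-09), in an alternative chosen after the values were seen. With the batch number as a block it was -3.58 (adjusted p = 0.00926), and DESeq2 with all libraries gave -2.87 (adjusted p = 7.82e-06).

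In edgeR 0 of the 8 family names tested in gills passed, against 0.217% of all 460 names, with 3 at an unadjusted p under 0.05. DESeq2 called 1, miR-100b-5p, and no share of all names is given for that fit. The median log2 change was 0.35 over the 8 names and -0.02 over all names.

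In skin the same contrast among the profiles appeared. miR-100 ran from 4926 to 17410 CPM in winter (median 9305) and from 5079 to 23600 in summer (median 11420), with wide overlap (log2 0.28 ± 0.33, edgeR adjusted p = 0.952). miR-99 (0.48 ± 0.28) and miR-99-5p (0.33 ± 0.20) did not pass (edgeR adjusted p = 0.641 for both). miR-100b-5p had a median of 76.62 in winter (36.8 to 115.8) and of 6.85 in summer (3.143 to 45.96). Here 6 of 7 summer libraries lay below the lowest winter library, and skin summer 1, at 45.96, did not.

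The fitted change of miR-100b-5p in skin was -2.73 ± 0.52 on the log2 scale, 6.62-fold lower (edgeR adjusted p = 0.0138). Without skin summer 1 it was -3.51 (adjusted p = 2.9e-05). It was the 1 family name of 8 that passed, against 0.629% of all 477 names, 0.419% as lower. Without skin winter 2 it was -2.66 and its adjusted p was 0.0544, and with totals that leave out the miR-10 names -2.60 and 0.0579. Summed muscle markers were 5901 to 15740 CPM in winter skin and 6261 to 11420 in summer skin. Their part in the skin results was not tested.

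The seasonal change differed between tissues for the family. A test of any difference among the 3 tissues called 8 of the 9 family names tested. The 9th was miR-100a-2-3p. Of all 525 names 14 (2.67%) were called, the family's 8 included. Against gills, the rise in muscle was larger by 1.83 ± 0.41 on the log2 scale for miR-100 (edgeR adjusted p = 0.00794), by 1.41 ± 0.37 for miR-99 (0.0286) and by 1.16 ± 0.32 for miR-99-5p (0.0422). In all 7 names, which rest on these 3 profiles, were higher there, against 1.9% of all names called. As higher 8 names (1.52%) were called, the 7 included. Without gills winter 2 the difference of miR-99 had an adjusted p of 0.0521 and that of miR-99-5p 0.0758, and 3 names remained called, all of the miR-100 profile.

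Against skin, the difference was 1.98 ± 0.41 for miR-100 (edgeR adjusted p = 0.00213), 1.63 ± 0.37 for miR-99 (0.00484), 1.40 ± 0.32 for miR-99-5p (0.00486) and 3.12 ± 0.80 for miR-100b-5p (0.0179). That made 8 names higher, which rest on these profiles alone. Of all names 12 (2.29%) were called, all as higher, with the 8 included. For miR-100b-5p the difference between muscle and gills was 2.40 ± 0.79 (edgeR adjusted p = 0.142). It was 3.79 with the batch number as a block (adjusted p = 0.00207) and 4.22 without gills summer 2 (3.08e-06). Between skin and gills 0 of 9 names were called by edgeR, and 0 had an unadjusted p under 0.05, against 0.762% of all names called. On plain totals 3 names were called in the joint test (3.62% of all names), 3 against gills (0.571% as higher) and 3 against skin (0.952%). The 3 against gills were the miR-100 profile and make up the 0.571%. Against skin both miR-100 and miR-100b-5p were among the 3. The difference of miR-100 was then 1.50 and 1.05.

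**Figure D2:**
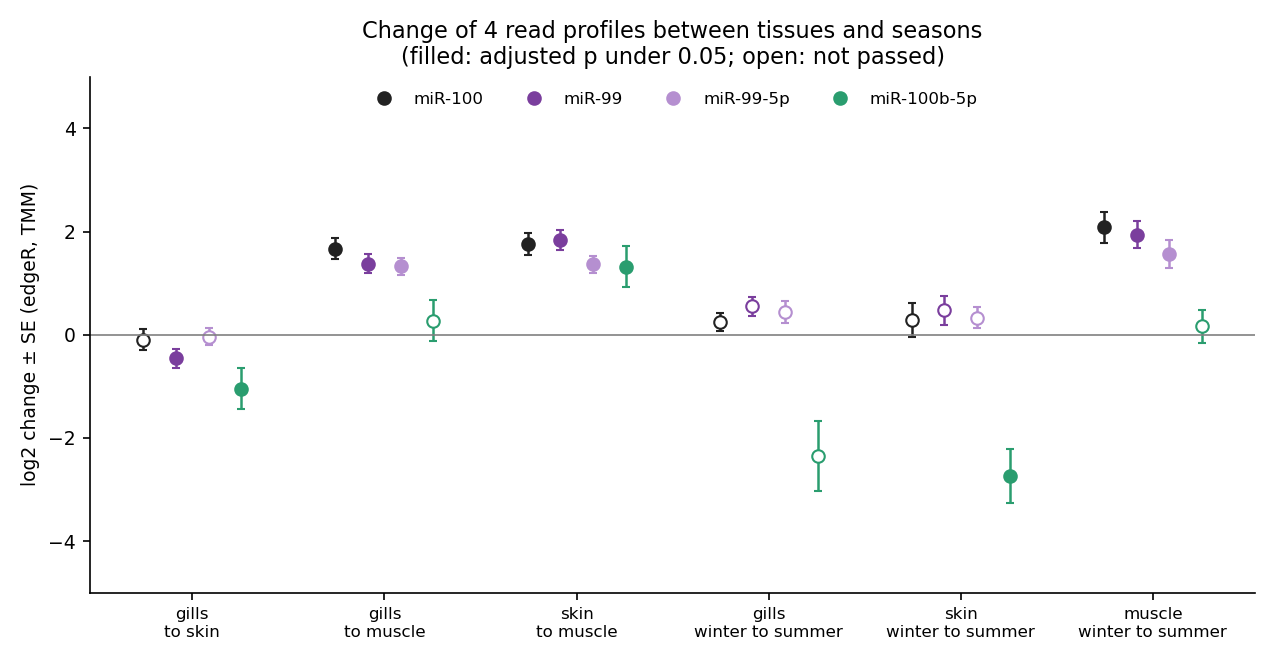
Log2 change of the 4 read profiles between tissues (left) and from winter to summer within a tissue (right), with bars of 1 SE from edgeR with TMM scaling; filled points passed at an adjusted p under 0.05. In the seasonal part miR-100, miR-99 and miR-99-5p are filled in muscle at 1.57 to 2.08, and miR-100b-5p is filled in skin at -2.73.

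The share of miR-100b-5p relative to miR-100 does not depend on how libraries are scaled, since both are read in the same library. Gill libraries had 0.898 to 1.71 reads per 100 miR-100 reads in winter (median 1.24) and 0.0281 to 0.799 in summer (median 0.0761). The summer maximum was gills summer 2, and the next highest summer library stood at 0.0829. Skin libraries had 0.574 to 1.12 in winter (median 0.823) and 0.0600 to 0.195 in summer (median 0.0650), with skin summer 1 highest and the next at 0.0791. Muscle libraries had 0.257 to 0.627 in winter (median 0.408) and 0.0644 to 0.138 in summer (median 0.116). In each tissue every winter library lay above every summer library, and the winter median was 16.3, 12.7 and 3.52 times the summer median in gills, skin and muscle.

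Some of these summer ratios rest on few miR-100b-5p reads. Gills summer 4 had 1 such read beside 3561 of miR-100, for which the 95% Wilson interval of the share is 0.00496 to 0.159%. In gills summer 2 the interval was 0.738 to 0.851% and in skin summer 1 it was 0.174 to 0.217%. Such intervals cover counting error only. The same 2 fish did not stand out elsewhere: fish summer 2 had a ratio of 0.0600 in skin and 0.117 in muscle, and fish summer 1 had 0.0544 in gills and 0.0794 in muscle. In winter the ratio fell from gills to skin in 7 of 7 fish and from skin to muscle in 7 of 7. In summer muscle was higher than skin in 6 of 7 fish. The ratio carries both parts, so the lower summer ratio in muscle goes with higher miR-100, whereas in gills and skin it goes with lower miR-100b-5p.

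**Figure D3:**
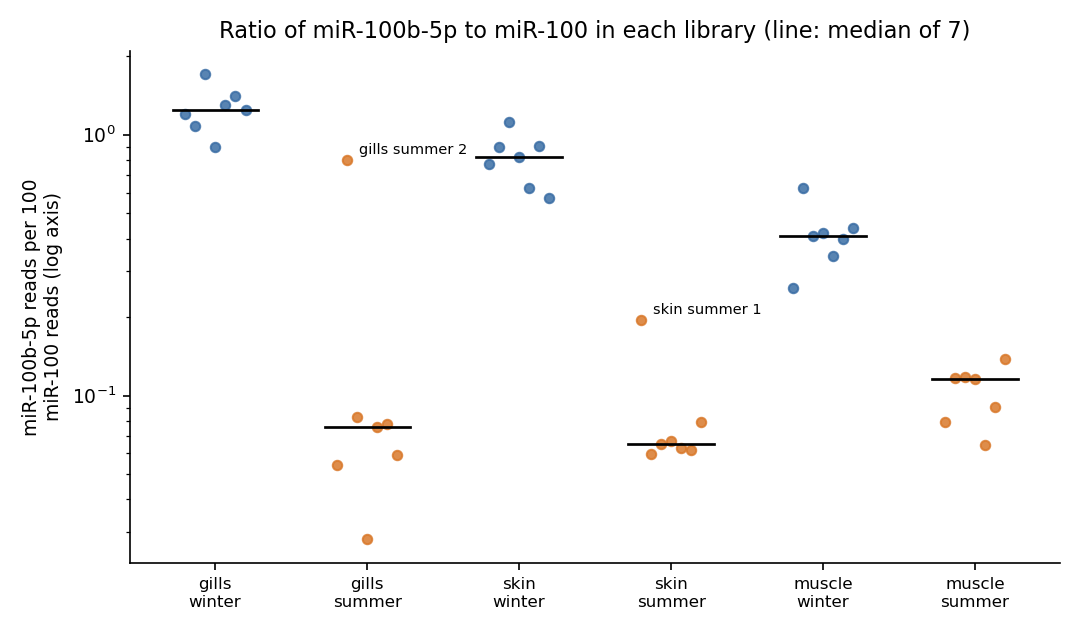
Reads of miR-100b-5p per 100 reads of miR-100 in each library, on a log axis, with 7 libraries and their median (line) per tissue and season. The winter medians of gills, skin and muscle step down, at 1.24, 0.823 and 0.408, and in each tissue the summer libraries lie below all winter libraries, with gills summer 2 (0.799) and skin summer 1 (0.195) highest among them.

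Across tissues, relative to the bulk of miRNAs, the main profiles were highest in muscle. Over both seasons miR-100 had a median of 10830 CPM in gills, with a range of 7674 to 14280, while skin had 10360 (4926 to 23600) and muscle 35280 (6822 to 112400). It was higher in muscle than in gills by 1.67 ± 0.21 on the log2 scale (edgeR adjusted p = 1.18e-09) and than in skin by 1.76 ± 0.21 (4.37e-10), but lower by 1.78 and 0.59 on plain totals. miR-99 (log2 1.38 ± 0.19 from gills and 1.84 ± 0.19 from skin) and miR-99-5p (1.33 ± 0.16 and 1.36 ± 0.16) were also higher in muscle in edgeR, and lower on plain totals. Within fish, muscle exceeded gills for miR-100 in 13 of 14 on the TMM scale and in 0 of 14 on plain totals. It exceeded skin in 12 of 14 and in 6 of 14, the latter being 1 of 7 winter and 5 of 7 summer fish. These counts of fish use plain totals of 1 name per profile, and the fits those of all names.

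The direction of these tissue differences therefore rests on the scaling. Plain totals put the median log2 change of all names at -3.49 from gills to muscle and -2.39 from skin to muscle, against -0.10 and -0.11 with TMM. Relative to those medians the family median lay higher under both scalings, at -2.04 from gills to muscle and -0.63 from skin to muscle on plain totals and at 1.38 and 1.73 with TMM. With totals that leave out the miR-10 names, which differed by 5.07 ± 0.30 on the log2 scale for miR-10b from gills to muscle, muscle stayed higher, at 1.65 from gills and 1.57 from skin for miR-100.

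Of 9 family names tested, 7 were higher and 0 lower from gills to muscle, against 76.6% of all names called, 37.5% as higher and 39.0% as lower. From skin to muscle 8 were higher and 0 lower, against 67.0%, 32.4% as higher and 34.7% as lower. On plain totals all 9 were lower in each of these comparisons, against 84.2% and 82.5% of all names called lower on that scale. miR-100b-5p was higher in muscle than in skin by 1.32 ± 0.40 (edgeR adjusted p = 0.0035), and lower by 1.03 on plain totals. Its difference from gills to muscle was 0.27 ± 0.39 (adjusted p = 0.531), and 1.15 without gills summer 2 (adjusted p = 0.000336). On the TMM scale miR-100b-5p was lower in muscle than in gills in 7 of 7 winter fish and higher in 7 of 7 summer fish. On plain totals it was higher in muscle in 0 of 7 winter and 3 of 7 summer fish.

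Between gills and skin 0 names were higher and 3 lower, against 54.5% of all names called, 28.8% as lower and 25.7% as higher. miR-100 (-0.09 ± 0.20) and miR-99-5p (-0.04 ± 0.16) did not pass in edgeR (adjusted p = 0.76 and 0.883). miR-99 was lower in skin by 0.45 ± 0.18 on the log2 scale (edgeR adjusted p = 0.0325) and miR-100b-5p by 1.05 ± 0.40 (0.0224). Neither call held without gills summer 2, where miR-99 was at -0.40 (adjusted p = 0.0582) and miR-100b-5p at -0.12 (0.769). With the fish as a block miR-100b-5p was at -0.61 (0.183).

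**Figure D4:**
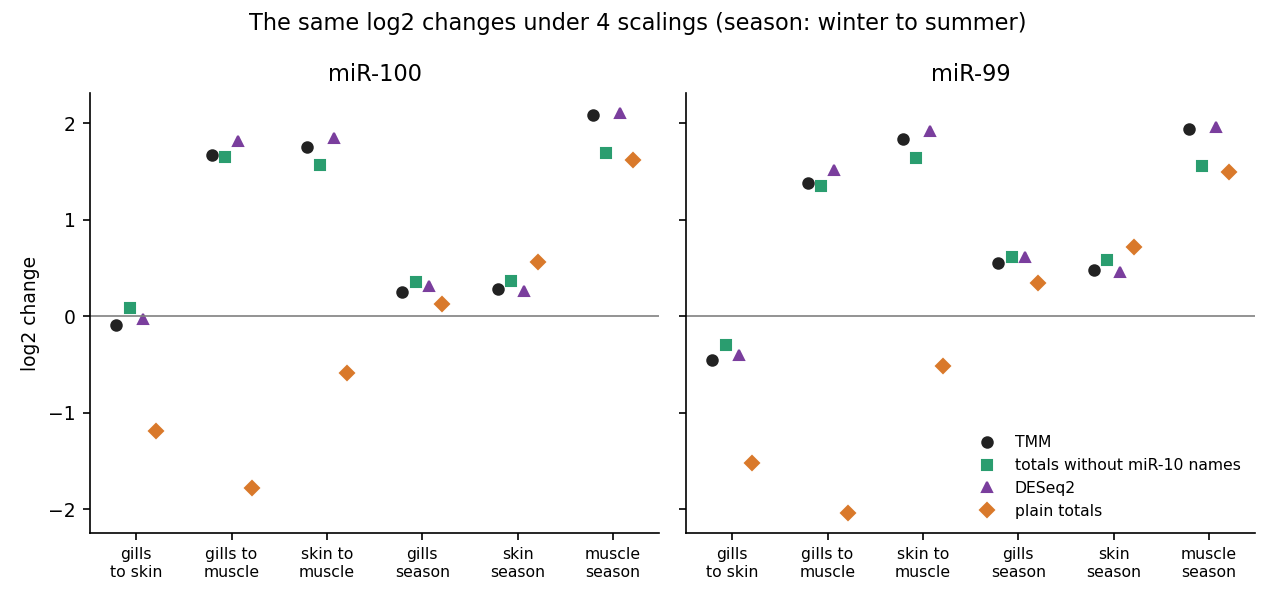
Log2 change of miR-100 (left panel) and miR-99 (right panel) under 4 scalings, between tissues and from winter to summer within a tissue. From gills to muscle miR-100 stands at 1.67 with TMM and at -1.78 on plain totals, while the seasonal change in muscle stays above 1.5 for miR-100 under all 4.

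The order of miR-100 levels by group likewise depended on the scale. With TMM the order of medians was summer muscle, winter muscle, summer gills, summer skin, winter gills and winter skin, and below summer muscle the ranges of neighbours in that order overlapped. On plain totals the medians were 31020 CPM in summer gills, 26620 in winter gills, 20170 in summer muscle, 14890 in summer skin, 10330 in winter skin and 5879 in winter muscle. There, too, the ranges of neighbours overlapped.

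The balance inside the family is free of library scaling. miR-100 made up 74.1 to 89.0% of the 4 profiles' summed reads in every library. miR-99 stood at 13.2 and 16.4 reads per 100 of miR-100 in winter and summer gills (medians), 11.6 and 13.1 in skin and 12.9 and 12.0 in muscle, and it was lower in skin than in gills in 13 of 14 fish. miR-99-5p stood at 37.7 and 33.3 reads per 100 of miR-99 in winter and summer gills, 51.4 and 49.1 in skin and 39.1 and 31.7 in muscle. It was lower in muscle than in skin in 14 of 14 fish and higher in skin than in gills in 12 of 14.

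Within the miR-100 profile, reads on the Nile tilapia precursors mir-100-1 and mir-100-2 were nearly equal. A read that matches both precursors counts on both, so this does not show that the 2 give equal output. There were 98.4, 97.5 and 100.2 reads on the first per 100 on the second in winter gills, skin and muscle (medians), and 100.4, 99.9 and 104.4 in summer. Summer muscle spanned 102.4 to 128.3, above the winter muscle range of 95.7 to 102.1. The highest library was muscle summer 5.

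**Figure D5:**
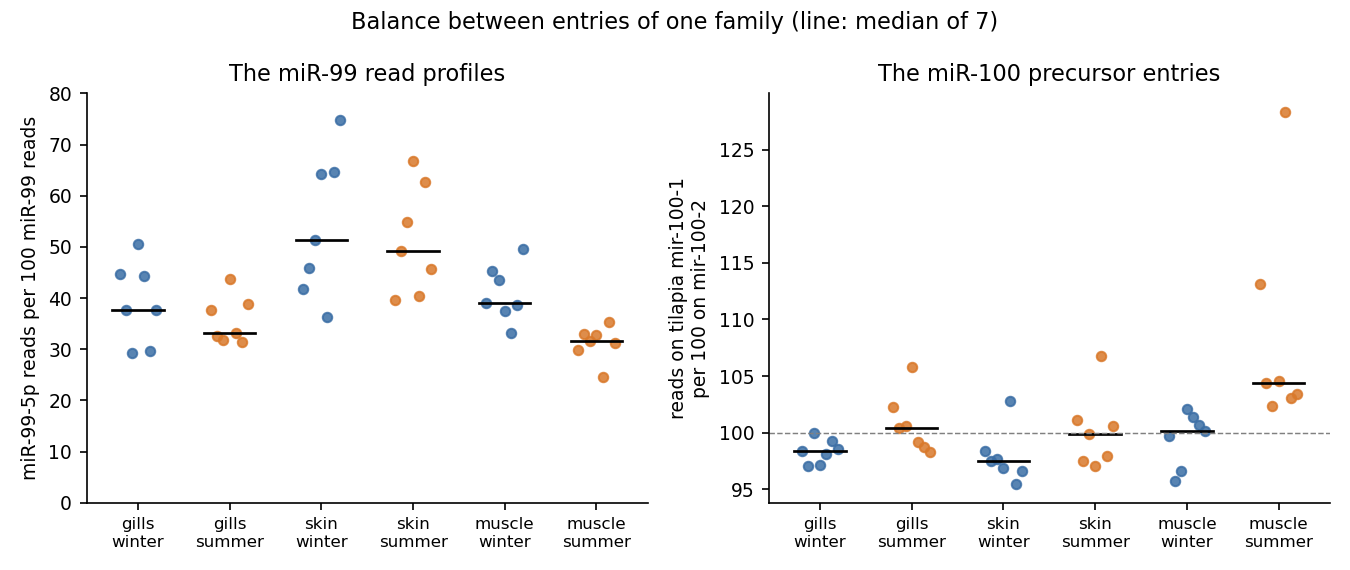
Reads of miR-99-5p per 100 of miR-99 (left) and reads on tilapia mir-100-1 per 100 on mir-100-2 (right) in each library, with 7 libraries and their median (line) per group. Skin has the highest medians on the left (51.4 and 49.1). On the right summer muscle spans 102.4 to 128.3 while most other libraries lie near 100 (dashed line). Reads that match both precursors count on both.

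The rare 3p arm miR-100a-2-3p was seen mainly in winter. In gills its 7 winter libraries held 53 reads in all and its 7 summer libraries 8, of which 6 were in gills summer 2. In skin the sums were 73 and 5, with 2 of the 5 in skin summer 1, and in muscle they were 38 and 3. Per 100000 reads of its partner arm miR-100a-5p this was 12.3 and 0.569 in winter and summer gills, 16.2 and 0.684 in skin and 10.7 and 0.189 in muscle. The name was below the count filter in the seasonal fits.

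With no filter miR-100a-2-3p fell from winter to summer in all 3 tissues. The log2 change was -3.96 ± 0.85 in gills (edgeR adjusted p = 0.0242), -4.10 ± 0.51 in skin (9.53e-05) and -3.32 ± 0.71 in muscle (0.0053). These fitted changes rest on few summer reads, 8, 5 and 3 in all, and the gill reads lie in 2 of 7 libraries. In the fit over all 42 libraries, which it passed, it was not called between tissues. The other 3p name with reads, miR-100a-3p, had 3 and 10 reads in winter and summer gills, 5 and 3 in skin and 4 and 1 in muscle, and was not called in any tissue with no filter (edgeR adjusted p = 0.992, 0.796 and 0.44).

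The cluster partners were tested in the same fits, and the lists were not tested against the family. Among let-7 names, a family tied to differentiation, 4 of 20 rose in muscle from winter to summer and 0 fell, against 6.56% and 7.26% of all names. The 4 are let-7d (log2 1.22 ± 0.27, edgeR adjusted p = 0.00473) and let-7e (1.49 ± 0.26, 0.000827) under 2 names each, and the list median was 0.50 against -0.17 over all names. The most abundant, let-7a, was at 0.35 ± 0.45 (adjusted p = 0.651). In gills and in skin 0 of 20 passed between seasons in edgeR and in DESeq2, with 2 and 0 at an unadjusted p under 0.05 in edgeR.

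Between tissues, let-7 names were higher in 8 and lower in 0 of 20 from gills to muscle, higher in 6 and lower in 4 from skin to muscle, and higher in 2 from gills to skin. Of all names 37.5%, 32.4% and 25.7% were higher in these comparisons, so the first 2 counts of higher names lie near the background. As lower, 39.0%, 34.7% and 28.8% of all names were called, whereas 0 of 20 let-7 names were lower from gills to muscle and from gills to skin. On plain totals all 20 were lower each time, as were 84.2%, 82.5% and 69.7% of all names. The 4 lower names from skin to muscle were let-7i (-0.48 ± 0.17, edgeR adjusted p = 0.01) and let-7j (-0.32 ± 0.13, 0.0328) under 2 names each. let-7d, the largest rise from gills to muscle named here, was at 1.72 ± 0.20.

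Of 7 miR-125 names tested between seasons 0 passed in any tissue in edgeR or DESeq2, with 4 at an unadjusted p under 0.05 in muscle and 0 in gills and skin (edgeR). In muscle the list median was -0.60, and on plain totals 4 fell there, against 17.6% of all names. The most abundant, miR-125a-5p, was at -0.60 ± 0.28 there (edgeR adjusted p = 0.18). From gills to muscle 4 of 8 were higher and 0 lower, among them miR-125b (0.64 ± 0.17, adjusted p = 0.000903), and from skin to muscle 4 and 0. From gills to skin 2 were higher and 0 lower. Of all names 37.5%, 32.4% and 25.7% were higher and 39.0%, 34.7% and 28.8% lower in these comparisons. On plain totals 8, 8 and 6 miR-125 names were lower and 0 higher, where 84.2%, 82.5% and 69.7% of all names were lower.

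The related miR-10 genes lie in Hox gene clusters in vertebrates. All 10 names tested, which rest on 5 read profiles, were higher in muscle than in gills and than in skin. On plain totals 8 were higher and 2 lower from gills and 5 higher and 5 lower from skin. From gills to skin 9 were higher and 1 lower, miR-10d at -0.74 ± 0.25 (edgeR adjusted p = 0.0106), and 7 and 1 on plain totals. Of all names 37.5%, 32.4% and 25.7% were higher and 39.0%, 34.7% and 28.8% lower in these comparisons with TMM. On plain totals 84.2%, 82.5% and 69.7% of all names were lower. Between seasons 0 of them passed in any tissue in edgeR with TMM, with 0, 3 and 1 at an unadjusted p under 0.05 in gills, skin and muscle, and miR-10b was at 0.43 ± 0.28 in muscle (adjusted p = 0.315). On plain totals 1 rose in muscle, miR-10d-5p at 0.47 ± 0.10 (edgeR adjusted p = 0.0075), where 3.98% of all names were higher. DESeq2 called 2 lower in skin and 1 higher in muscle, and no share of all names is given for that fit.

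Over the 42 libraries miR-100 and miR-99 ranked the libraries alike, with a Spearman correlation of their levels of 0.93 (0.82 within gills, 0.98 within skin and 0.98 within muscle, 14 libraries each). miR-100 and miR-100b-5p had 0.26 over all libraries, -0.25 within gills, 0.40 within skin and 0.69 within muscle. These values are descriptions, since tissues, seasons and libraries are shared between the names.

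Outside the family, the levels most like those of miR-100 among 292 read profiles were miR-183 (0.77), a miRNA of sensory cells, and miR-30c (0.73), miR-30a-5p (0.71), miR-30b-5p (0.70) and miR-30c-5p (0.69). Within gills, skin and muscle the correlation with miR-183 was 0.69, 0.78 and 0.60, whereas that with the 4 miR-30 names was 0.23 to 0.49. For miR-99 the nearest were miR-7 (0.80) and miR-7b (0.78), known from endocrine cells, miR-2188-5p (0.70), miR-30c-5p (0.69) and miR-30c (0.68). Within tissues miR-99 and miR-7 had 0.58 (gills), 0.44 (skin) and 0.78 (muscle).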

How the data were processed

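Small RNA was cut from gels, made into TruSeq Small RNA libraries and sequenced on a NextSeq instrument, with read 1 alone used, per the labels' protocols. The authors deposited 1 table per library with whole-number read counts for each mature miRNA on each precursor, not normalized, per the file headers. A second deposited column gives CPM, relative to the sum of the table's entries; no test used it. The sources used here do not state the aligner, the miRNA reference or a filter. A read counts under every entry it matches. The 3527 entries (a mature miRNA on a precursor) that every table shares were reduced to 1342 names by removing the species prefix and keeping the highest entry per library, and 672 names had reads. The 583 names with at least 42 reads fell into 338 read profiles. Members and lists were chosen with earlier results of these data known. All members are named. Outside the family the text names the 5 profiles nearest to miR-100 and to miR-99 by Spearman correlation, and of let-7, miR-125 and miR-10 the most abundant name and those against the list's direction. let-7d, let-7e, miR-125b and miR-10d-5p were chosen as examples after their values were seen.

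The test was edgeR's quasi-likelihood F test (version 4.0.16, R 4.3.3) after TMM scaling and filterByExpr (count at least 10, total at least 15). Names passed at a Benjamini-Hochberg adjusted p under 0.05 over all names tested. Summer was set against winter in the 14 libraries of each tissue, and tissues and seasonal differences between tissues over all 42 libraries, as the second tissue minus the first. SEs were derived from the change and its F value. Levels are CPM of totals over 1 name per profile times TMM factors, and levels on plain totals leave the factors out. The fits used totals summed over all names, with TMM factors or, on plain totals, without them. Levels and fitted changes on plain totals therefore rest on different totals. DESeq2 1.42.0, other scalings, other filters, blocks and left-out libraries were alternatives. Scripts were tested on simulated data.

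Summed over names, libraries held 598084 to 57710548 counts. Reads carry no molecular identifiers. Of 126 library pairs within groups 0 held identical counts (chi-square per degree of freedom at least 34.1). Tissues were paired by fish, which the labels give, in the counts of fish and in an alternative fit with fish as a block. The main fits held no term for fish or batch number, so they took libraries of 1 fish as independent. The labels also give a batch number from 1 to 7 that equals the fish number in both collections. It was taken as pairing the seasons, in alternative fits alone, because it is called a batch. What a batch shared is not given. Same-numbered libraries of the 2 seasons deviated together with a median correlation of 0.62 in gills, 0.724 in skin and 0.142 in muscle, and tissues of 1 fish with 0.121, 0.087 and 0.117.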

Additional observations from a re-analysis of the deposited data

Results flagged for a closer look

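In 48 groups of 7 libraries, 10 held a library that stood apart from the other 6, with a gap to its nearest neighbour above 0.568 of the group's range. Chance alone gives about 1 in 20 groups where values are independent and normally distributed. Several groups share libraries and reads, so the 10 flags are not separate and cannot be set directly against that rate.

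miR-100b-5p stood apart in gills summer 2, at 114.1 CPM against 3.385 to 9.524 in the other summer gills, and in skin summer 1, at 45.96 against 3.143 to 12.01. Its ratio to miR-100 stood apart in the same libraries, at 0.7986 and 0.1947 per 100 reads. Muscle winter 2 was low for miR-100, at 6822 CPM against 15930 to 21500, and for miR-99, at 984.7 against 2099 to 2750. Gills summer 4, the shallowest library, had 24.32 reads of miR-99 per 100 of miR-100 against 13.18 to 17.17. Reads on mir-100-1 per 100 on mir-100-2 were highest in the library numbered 5 in 3 groups: 102.8 in skin winter, 106.8 in skin summer and 128.3 in muscle summer. Winter fish 5 and summer fish 5 are different animals with the same batch number. In gills winter 5 the value was 98.15, in gills summer 5 it was 99.19 and in muscle winter 5 it was 101.4.

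The seasonal change differed between tissues by an interaction test. Muscle exceeded gills by 1.83 on the log2 scale for miR-100, 1.41 for miR-99 and 1.16 for miR-99-5p. Muscle exceeded skin by 1.98 for miR-100, 1.63 for miR-99, 1.40 for miR-99-5p and 3.12 for miR-100b-5p. In the fits within a tissue miR-100b-5p changed by 0.17 in muscle, which did not pass, and by -2.73 in skin.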

How the results depend on the processing

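The rise of the 3 profiles behind the 7 family names in summer muscle held under all 22 alternatives run for it. With 1 name per profile only 3 of those names were in the fit. Scaling decided the tissue directions: on plain totals the names higher in muscle went from 7 to 0 against gills and from 8 to 0 against skin, and the names lower from 0 to 9 in each. The log2 changes from gills to muscle became -1.78 (miR-100), -2.04 (miR-99), -2.06 (miR-99-5p) and -2.97 (miR-100b-5p), and those from skin to muscle -0.59, -0.51, -0.99 and -1.03. Median miR-100 levels on plain totals of 1 name per profile, not the totals of these fits, were 26620 and 31020 in winter and summer gills. In muscle they were 5879 and 20170. The names with a seasonal change that differed between tissues were then 3 in the joint test, 3 in muscle against gills and 3 in muscle against skin.

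From gills to skin the 3 lower names became 8 on plain totals, 0 without miR-10 in the totals, 0 with every name that had a read, 0 with 1 name per profile, 1 with DESeq2 and 0 to 3 without single gill libraries. Without miR-10 in the totals miR-100 turned to 0.081 and miR-99-5p to 0.11, with 1 name per profile to 0.059 and 0.080. Without single gill libraries miR-99-5p lay between -0.069 and 0.0033, the latter without gills summer 2.

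The 0 names lower in summer gills became 1 in the fit over all 42 libraries and with every name that had a read, in both miR-100a-2-3p. With the batch number as a replicate block and with DESeq2 the 1 name was miR-100b-5p. The count was 0 to 1 when libraries were left out. The 1 name lower in summer skin became 2 in the fit over all libraries, 2 with every name that had a read, 0 without miR-10 in the totals, and 0 to 1 when libraries were left out. The 0 lower in summer muscle became 1 in the fit over all libraries and 1 with every name that had a read. In the fits of every name and in the fit over all libraries, miR-100a-2-3p was lower in each tissue. In muscle miR-100b-5p turned to -0.34 on plain totals and -0.22 without miR-10. Left-out gill libraries gave 3 to 8 names with a seasonal change that was higher in muscle than in gills.

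The seasonal differences between skin and gills, none of them called, changed sign: on plain totals to 0.45 (miR-100), 0.38 (miR-99), 0.34 (miR-99-5p) and 0.25 (miR-100b-5p), with every name that had a read to 0.057 for miR-100, and for miR-100b-5p to 0.34 with the batch number as a block. Without single gill libraries that of miR-100b-5p lay between -0.88 and 1.16, the latter without gills summer 2. With entries summed per name, the median ratio of miR-100b-5p to miR-100 was 0.0779 in winter gills, 0.0521 and 0.0041 in winter and summer skin and 0.0258 and 0.0075 in muscle, because 16 miR-100 entries are then summed against 1.

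With fish or batch numbers as a block no call of the 4 profile names changed other than those of miR-100b-5p given in the report. Over all alternatives 407 single-name values kept direction and call, 22 changed direction, 18 lost a call and 9 gained one. Where no value shows the cause of a change, the cause was not tested. Low counts limit the 3p arms most, since several summer libraries held few or no reads of them, and miR-100b-5p in gills summer 4, with 1 read. Low counts were not confined to shallow libraries. Gills summer 6, with 10606342 reads, held 0 of miR-100a-2-3p, and gills winter 6, with 1732008, held 13.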
